A study of Rattus norvegicus with 15 samples.

Results

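The 9 genes described here make fatty acids from sugar carbon in the cytosol, supply the NADPH that this synthesis consumes, or regulate both. They were read in the epididymal fat pad, a visceral depot, of 15 male Long-Evans rats, on 1 Affymetrix RAE230_2 array per rat. The members are the citrate carrier Slc25a1, ATP citrate lyase (Acly), acetyl-CoA carboxylase (Acaca), fatty acid synthase (Fasn), malic enzyme (Me1), 6-phosphogluconate dehydrogenase (Pgd), transketolase (Tkt), the lipogenic regulator Thrsp (Spot 14) and the transcription factor Srebf1 (SREBP-1). They were taken as every probe set (the set of short probes for 1 transcript) that the platform annotation assigns to exactly 1 gene, that gene being one of the 9. This gave 15 probe sets for 9 of 9 genes, out of 20826 probe sets that name 1 gene and 14218 genes so named. For Pgd, 4 further probe sets that name several genes were left out.

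The obese group held 7 rats fed a diet high in fat and sucrose from weaning, and the lean group 8 rats fed regular chow. Both groups were Long-Evans males of a private colony, housed 1 to a cage, and both had an oral glucose tolerance test at 21 weeks and an overnight fast with blood sampling at 25 weeks. Fat was taken in the week after that, at 26 weeks of age, with the rats fed. The labels name no drug or transgene. Diet and body fat differed together, so their parts cannot be told apart, and whole tissue was used, so fewer cells of a type and less RNA per cell cannot be told apart either. The array of obese rat 1 (C1 in the labels) and that of lean rat 7 (A7) were almost the same: the SD of their log2 difference over 18625 probe sets was 0.22, against 0.37 to 0.61 for the other pairs of arrays. Over the 15 member probe sets these arrays differed by at most 0.20 on the log2 scale, with a median of 0.05. The groups were therefore compared with all 15 rats and with 13 rats, without this pair, which leaves 6 obese and 7 lean rats. Values below are from the 13 rats unless stated otherwise, and many are given for those rats alone. All 10 adipocyte markers examined, among them Adipoq, Plin1, Cidec and Fabp4, lay above the filter on low signals. Median signals of Adipoq were 57796.3 in the 7 obese and 57965.4 in the 8 lean rats.

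Fat cells turn glucose into fatty acids by a short chain of steps. Citrate made in mitochondria leaves through Slc25a1, Acly splits it into acetyl-CoA, Acaca makes malonyl-CoA, and Fasn builds palmitate with NADPH as the reductant. NADPH comes from Me1, which recycles the other product of citrate cleavage, and from the pentose phosphate pathway, where Pgd works in the oxidative branch and Tkt in the branch that returns pentoses to glycolysis. Srebf1 drives the genes of this chain in response to insulin, and Thrsp, whose gene responds strongly to carbohydrate and thyroid hormone, promotes fatty acid synthesis in fat and liver.

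The pentose phosphate enzyme Tkt, the citrate carrier Slc25a1 and 1 of 3 Thrsp probe sets rose in obese rats when the near-identical pair was left out. Acly, Acaca and Fasn, the enzymes between citrate and palmitate, had brightest probe sets whose log2 fold changes lay between -0.05 and 0.14, and none passed the test. With 13 rats 3 of 15 member probe sets rose and 0 fell at an adjusted p of 0.05 (limma with Benjamini-Hochberg adjustment over all 18625 probe sets tested), where 0.725% of all probe sets rose and 0.29% fell. With 15 rats 0 of 15 passed, as did 0% of all probe sets, and 7 of 15 had an unadjusted limma p under 0.05 with a higher signal in obese rats, against 6.74% of all. At that unadjusted threshold 8 of 15 were higher with 13 rats, against 7.59% of all, and 0 were lower in either set, against 8.82% of all with 15 rats and 10.2% with 13. Counted by the brightest probe set of each gene, the value used for a gene here, 2 of 9 genes rose with 13 rats. Their median log2 fold change was 0.28 with 13 rats and 0.25 with 15, beside -0.04 over all probe sets in both. In both sets of rats 11 of 15 member probe sets had a positive log2 fold change, against 42.2% of all with 13 rats and 42.5% with 15.

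Promoter sequence is shown for Slc25a1, Thrsp and Pgd. These were chosen after the values were seen. Slc25a1 and a probe set of Thrsp were among those that rose, and Pgd separated the 13 rats by group without passing the test. Each is the 250 bases before the transcript start in RefSeq, build GRCr8, with capitals on 3 searched motifs where present: CACGTG (E-box), CCAAT (NF-Y box) and GGGCGG (Sp1 box), either strand. The letters TCACNCCAC, the core of a sterol regulatory element, were searched the same way.
Slc25a1, chr11:96559804-96560053, plus strand: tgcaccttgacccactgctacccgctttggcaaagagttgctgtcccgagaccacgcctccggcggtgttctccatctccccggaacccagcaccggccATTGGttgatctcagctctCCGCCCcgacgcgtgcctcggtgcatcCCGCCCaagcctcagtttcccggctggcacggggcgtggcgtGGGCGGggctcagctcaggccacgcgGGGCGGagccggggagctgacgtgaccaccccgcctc
Thrsp, chr1:161138965-161139214, minus strand: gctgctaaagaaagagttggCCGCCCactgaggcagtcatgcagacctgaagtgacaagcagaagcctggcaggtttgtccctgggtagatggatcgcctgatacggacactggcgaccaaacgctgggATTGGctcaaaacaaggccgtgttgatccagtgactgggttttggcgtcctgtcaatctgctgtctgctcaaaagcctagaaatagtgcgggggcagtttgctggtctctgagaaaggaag
Pgd, chr5:164882030-164882279, minus strand: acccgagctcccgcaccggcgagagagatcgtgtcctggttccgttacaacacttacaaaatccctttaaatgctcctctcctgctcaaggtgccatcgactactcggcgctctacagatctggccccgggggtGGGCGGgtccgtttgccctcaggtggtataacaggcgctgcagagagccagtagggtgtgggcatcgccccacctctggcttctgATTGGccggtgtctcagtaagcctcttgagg
The Slc25a1 window held 4 Sp1 boxes and 1 NF-Y box, and the Thrsp and Pgd windows held 1 of each. The window of Tkt, which rose and separated the 13 rats too, is not shown. It held 0 matches of the searched motifs, and it lay inside the annotated bounds of the gene. The window of Acly and 1 window of Srebf1, both counted below, lay inside the bounds of their genes as well. No matches overlapped. RefSeq entries for 7 member genes gave 8 such windows, of which 6 held an NF-Y box and 7 an Sp1 box, while 34% and 30.5% of all 33469 promoters in the table did. The E-box and the sterol regulatory core were in 0 of the 8 windows and in 5.59% and 0.974% of all promoters. Acaca and Fasn had no window, so these counts do not cover them. These matches describe letters in a window and say nothing of binding.

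**Figure D1:**
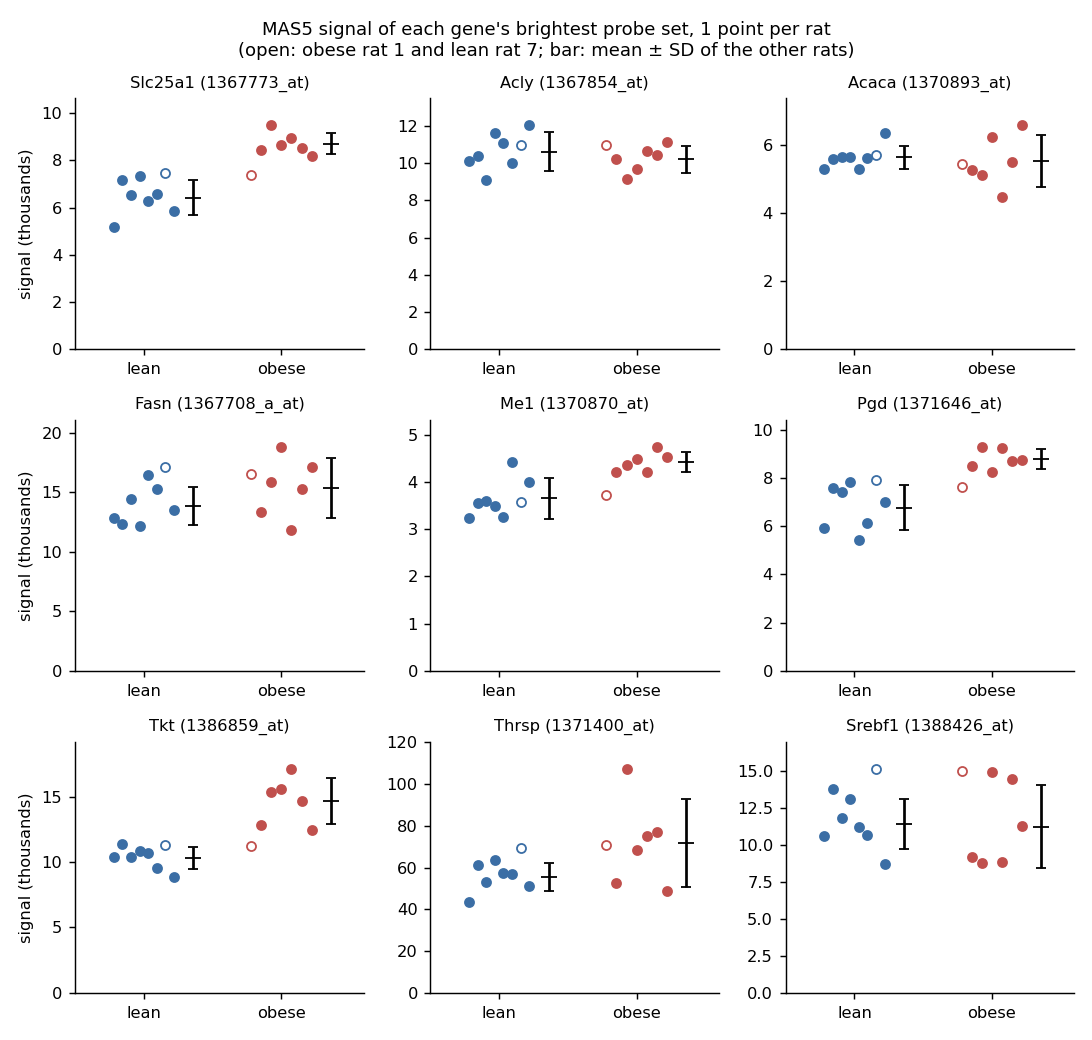
MAS5 signal (linear axis from 0) of the brightest probe set of each of the 9 genes, 1 point per rat, lean rats in blue and obese rats in red, with open points for the near-identical arrays and a bar for the mean ± SD of the 6 other obese and 7 other lean rats. Filled red points lie above all filled blue points for Slc25a1, Pgd and Tkt, and the groups overlap for the other 6 genes.

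Among the enzymes that carry carbon from citrate to palmitate, only the citrate carrier passed the test, in the comparison of 13 rats. Slc25a1 (1367773_at) had signals, the brightness the MAS5 program gives to a probe set, from 8183 to 9501.5 with a median of 8606.5 in the 6 obese rats, and from 5191.5 to 7345.5 with a median of 6549.9 in the 7 lean rats. Every one of these obese rats lay above every lean rat. The means were 8720.0 ± 460.4 (SD, n = 6) and 6422 ± 739 (SD, n = 7), and the log2 fold change on log2(signal + 79.9) was 0.44 ± 0.10 (SE; limma adjusted p = 0.0453). In the pair left out, obese rat 1 had 7404.3 and lean rat 7 had 7484.4, the lowest obese and the highest lean value. With all 15 rats the log2 fold change was 0.38 ± 0.09 (SE; limma adjusted p = 0.105). The call was lost in each of the 13 fits that left out 1 more rat, at adjusted p from 0.0543 to 0.102, while the log2 fold change stayed between 0.39 and 0.48. Other settings that ended the call were a covariate for RNA quality, the Gapdh ratio described below (limma adjusted p = 0.068), quantile normalization (0.113), a pseudocount of 1 (0.0510) and no filter on low signals (0.103). The log2 fold change was 0.54, 0.36, 0.45 and 0.44 in these, so it was lower than 0.44 under quantile normalization alone.

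Acly (1367854_at), which makes cytosolic acetyl-CoA, had signals from 9128.3 to 11118.6 in the 6 obese rats and from 9075.1 to 12049.0 in the 7 lean rats. The lean range enclosed all obese values. The log2 fold change was -0.05 ± 0.09 (SE; limma adjusted p = 0.800), and centring arrays on their medians turned its sign, to 0.06. Acaca, the step that commits acetyl-CoA to fat, was read by a bright (1370893_at) and a dim probe set (1387538_at), at -0.04 ± 0.10 and -0.20 ± 0.13 (SE; limma adjusted p = 0.881 and 0.424). The bright Acaca probe set ran from 4454.7 to 6579.8 in the 6 obese rats, a range that enclosed the lean values of 5286.2 to 6335.1, and median centring turned its log2 fold change to 0.08. The lowest dim value was 662.0, in obese rat 3, below the lean minimum of 867.5. In 5 of 6 obese rats the dim probe set lay below the lean median of 1100.3.

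Fasn had a bright probe set (1367708_a_at) from 11836.7 to 18808.6 in the 6 obese rats and from 12211.6 to 16419.0 in the 7 lean rats. Obese rats 5 and 8 lay above the lean range and obese rat 6 below it. The log2 fold change was 0.14 ± 0.12 (SE; limma adjusted p = 0.572). The dim Fasn probe set (1367707_at) had a larger estimate and a larger error, 0.37 ± 0.23 (SE; limma adjusted p = 0.412). In 3 of 6 obese rats, rats 3, 5 and 8, with 3916.0, 4293.9 and 3378.0, it exceeded the highest lean value of 2930.8, while the lowest obese value was 1712.3.

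Me1, Pgd and Tkt all had positive log2 fold changes. Tkt, which makes no NADPH itself, passed with 13 rats, and Pgd and Me1, which make it, did not. Tkt (1386859_at) ran from 12469.8 to 17112.7 with a median of 14986.7 in the 6 obese rats, and from 8883.7 to 11367.9 with a median of 10388.4 in the 7 lean rats. The groups did not overlap, and the lowest obese value was that of rat 8. The means were 14667 ± 1758 (SD, n = 6) and 10302 ± 832 (SD, n = 7), 1.42-fold apart, with 0.50 ± 0.10 for the log2 fold change (SE; limma adjusted p = 0.0333). Obese rat 1 had 11253.0 and lean rat 7 had 11271.0, both inside the range of the other lean rats, and with all 15 rats the log2 fold change was 0.43 ± 0.10 (SE; limma adjusted p = 0.103). The Tkt call held in 5 of 13 fits that dropped 1 more animal (obese 2, 3, 8, lean 1, 2) and was lost without each of the other 8 rats, at adjusted p up to 0.0743. It ended as well under quantile normalization (limma adjusted p = 0.082), with no filter (0.0788) and with the Gapdh covariate (0.068), at log2 fold changes of 0.40, 0.50 and 0.58.

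Pgd (1371646_at), an NADPH-yielding dehydrogenase of the pentose phosphate pathway, ran from 8230.6 to 9277.5 with a median of 8728.8 in the 6 obese rats and from 5440.5 to 7834.8 with a median of 7000.1 in the 7 lean rats. The groups did not overlap. The log2 fold change was 0.38 ± 0.10 with 13 rats and 0.33 ± 0.10 with 15 (SE; limma adjusted p = 0.0883 and 0.147), both short of the threshold. Of the alternatives run, it passed under median centring (0.0435) and under a robust, trended variance (0.0457). The 6 obese rats spread less, with an SD of 413.5 against 930.5 in the 7 lean rats. Together, Slc25a1, Tkt and Pgd gave 3 of 15 member probe sets with all obese above all lean rats among the 13, where 0.918% of all probe sets did so. With 15 rats 0 of 15 did, against 0.107% of all.

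Me1, which makes NADPH while turning malate into pyruvate, was read by 2 probe sets of near-equal estimate. The brighter one (1370870_at) ran from 4206.1 to 4737.3 in the 6 obese rats and from 3240.6 to 4426.3 in the 7 lean rats. The overlap came from lean rat 6, at 4426.3, since the other 6 lean rats lay below the lowest obese rat. The log2 fold changes were 0.28 ± 0.09 and 0.31 ± 0.13 (SE; limma adjusted p = 0.149 and 0.223), and neither passed in any alternative. In the dimmer one (1370067_at) 4 of 6 obese rats, rats 2, 5, 7 and 8, lay within the lean range of 2341.6 to 3664.1.

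**Figure D2:**
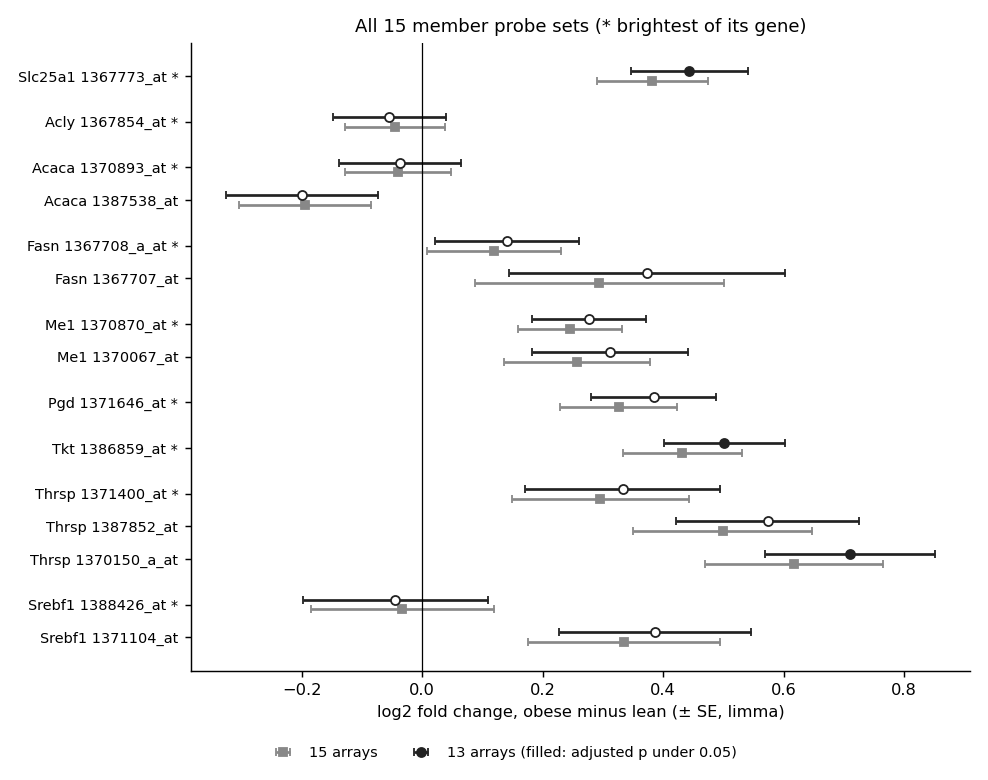
Log2 fold change, obese minus lean, with its limma standard error for all 15 probe sets, with 13 rats (circles, filled where the adjusted p is under 0.05) and with 15 rats (grey squares). Filled circles are Slc25a1 at 0.44, Tkt at 0.50 and Thrsp 1370150_a_at at 0.71, and the Srebf1 probe sets lie on either side of 0.

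The regulators were read by several probe sets that gave different answers. Thrsp had 3, all with positive log2 fold changes. The probe set 1370150_a_at ran from 32850.0 to 56115.1 with a median of 41085.6 in the 6 obese rats and from 20470.7 to 32987.4 with a median of 25786.4 in the 7 lean rats. The only overlap was between obese rat 2 and lean rat 8, the lowest and the highest of their groups. Its log2 fold change was 0.71 ± 0.14 (SE; limma adjusted p = 0.0319). The near-identical arrays stood with the obese rats here, obese rat 1 at 41566.8 and lean rat 7 at 42318.5, above every other lean rat, and with all 15 rats the log2 fold change was 0.62 ± 0.15 (SE; limma adjusted p = 0.103). The call held in 5 of 13 fits that dropped 1 more animal (obese 2, 3, 5, lean 1, 8) and was lost without each of the other 8 rats, at adjusted p up to 0.0731. The Gapdh covariate (limma adjusted p = 0.148) and no filter (0.0788) ended it too, at log2 fold changes of 0.61 and 0.71.

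The other Thrsp probe sets did not pass. Probe set 1387852_at had a mean of 17708.7 ± 4282 (SD, n = 6) in the obese group and 11675.5 ± 1652 (SD, n = 7) in the lean group. Its log2 fold change was 0.57 ± 0.15 (SE; limma adjusted p = 0.0803), which passed with the filter at the 60th percentile (0.0435), median centring (0.0455) and a robust, trended variance (0.0414). The brightest, 1371400_at, ran from 49034.5 to 107304.1 in the 6 obese rats and from 43767.8 to 63627.5 in the 7 lean rats. In 4 of 6 obese rats it exceeded every lean rat, and rats 2 and 8, at 52760.6 and 49034.5, lay within the lean range. Its log2 fold change was 0.33 ± 0.16 (SE; limma adjusted p = 0.297).

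Srebf1 was the 1 gene of the 5 with several probe sets whose probe sets differed in sign. The brighter one (1388426_at) had 8730.4 to 14916.0 in the 6 obese rats, with rats 2, 3 and 6 between 8730.4 and 9170.1 and rats 5 and 7 at 14916.0 and 14399.9. The lean rats ran from 8683.3 to 13775.1, and the log2 fold change was -0.04 ± 0.15 (SE; limma adjusted p = 0.906), with a sign that median centring turned, to 0.07. The dimmer one (1371104_at) exceeded the highest of the 7 lean rats, 3677.4, in 5 of 6 obese rats and fell below the lowest, 2838.0, in obese rat 2, at 2625.2. Its log2 fold change was 0.39 ± 0.16 (SE; limma adjusted p = 0.220). Lean rat 7, at 5238.1, and obese rat 1, at 5021.2, again lay above all other lean rats.

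**Figure D3:**
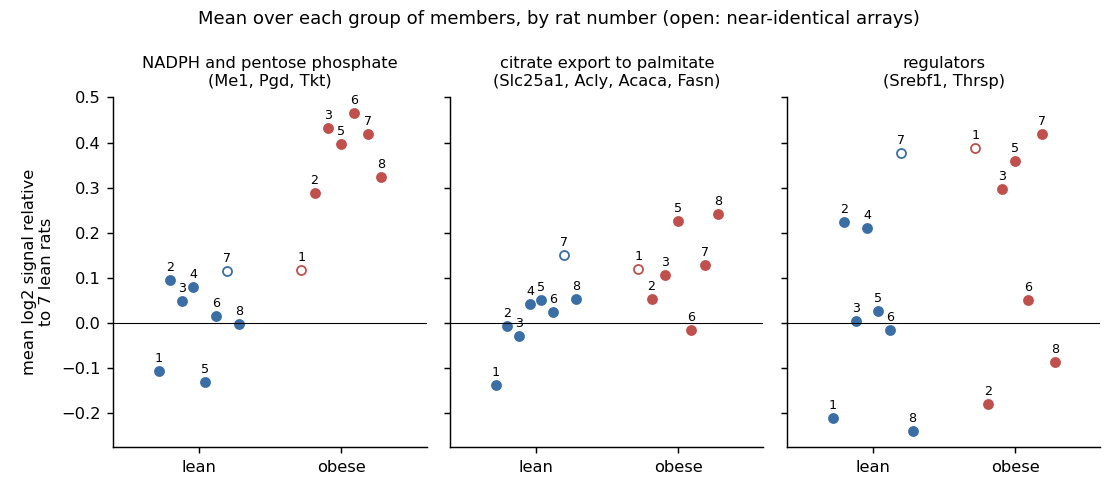
Mean log2 signal over the brightest probe sets of Me1, Pgd and Tkt, of the 4 genes from citrate export to palmitate and of the regulators, relative to the mean of 7 lean rats, 1 point per rat with its number, open for the near-identical arrays. For Me1, Pgd and Tkt the 6 obese rats lie between 0.29 and 0.47 and the 7 lean rats between -0.13 and 0.10, and in the other panels the groups overlap.

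Averaged by roles that were grouped after the values were seen, Me1, Pgd and Tkt separated the 13 rats and the other roles did not, as values with no test. The mean of Me1, Pgd and Tkt, relative to the 7 lean rats, was lowest in obese rat 2, at 0.29, and highest in obese rat 6, at 0.47. The highest of the 7 lean rats was rat 2, at 0.10, while obese rat 1 and lean rat 7 had 0.12 and 0.11. The mean from Slc25a1 to Fasn ran from -0.01 to 0.24 in the 6 obese and from -0.14 to 0.05 in the 7 lean rats. That of the regulators ran from -0.18 to 0.42 and from -0.24 to 0.22. Obese rat 6 was the highest obese rat for Me1, Pgd and Tkt and the lowest for the carbon steps.

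Macrophage markers differed between the groups, the measure of RNA quality did not pass its test, and both are given beside these results. All 23 macrophage markers tested had positive log2 fold changes with 13 rats, against 42.2% of all probe sets. With 13 rats 7 of the 23 rose, against 0.725% of all, and with 15 rats 0 did, as did 0% of all. None of the markers was at 0. Their summed signal ran from 250240 to 502975 in the 6 obese and from 161329 to 249444 in the 7 lean rats, and their mean log2 level was 12.98 ± 0.37 (SD, n = 6) and 12.30 ± 0.23 (SD, n = 7; exact two-sided permutation p = 0.00175, adjusted p = 0.00524 over 3 array measures). Obese rat 3, whose macrophage mean of 12.59 lay below that of lean rat 1, at 12.71, had the highest Slc25a1 and Pgd signals of all rats. Obese rat 6, with the highest macrophage mean, 13.65, had the highest Tkt signal, the highest mean of Me1, Pgd and Tkt and a Pgd signal of 9255.1, next to that of rat 3. These rats were singled out after their values were seen. The array of obese rat 3 also stood far from every other array, with an SD of the log2 difference of at least 0.51. The mean of the adipocyte markers differed by 0.0064 on the same scale (exact two-sided permutation p = 0.957, adjusted p = 0.957), with summed signals from 401948 to 864066 (median 512372) in the 6 obese and 435697 to 659872 (median 616348) in the 7 lean rats. That mean joined markers of both signs, since 6 of 10 had negative log2 fold changes and the median was -0.08, while Lep, the gene of leptin, had 0.79 (limma adjusted p = 0.0646). The log2 ratio of 3 prime to 5 prime Gapdh signal, which grows as RNA breaks down, averaged 0.72 ± 0.27 (SD, n = 6) in the obese group and 1.04 ± 0.28 (SD, n = 7) in the lean group, with an exact two-sided permutation p of 0.0594 and 0.0892 after adjustment. The part of macrophage RNA in the results above was not tested, and the fits with the Gapdh covariate are given with the genes that rose.

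Between rats of one group, the members did not vary as a block. Correlations of the 36 pairs of genes over 13 rats, taken on log2 deviations from the group means, had a median of 0.06 and ran from -0.61 to 0.70, with 23 of 36 positive. Each point is 1 rat, and both genes of a pair were read on the same array. The pair Slc25a1 and Thrsp alone passed after adjustment over 36 pairs, with Pearson's r of 0.70 (permutation p = 3e-05, adjusted p = 0.00108) and Spearman's rho of 0.82 (permutation p = 0.00084, adjusted p = 0.0302). Without lean rats 1 and 4, the farthest from the median of Slc25a1, r was 0.70, and it was 0.92 within the 6 obese and 0.95 within the 7 lean rats. The line was steeper in the obese rats, a difference that was not tested. Deviations of Slc25a1 ran from -0.09 to 0.12 and of Thrsp from -0.50 to 0.63 in the obese rats. In the lean rats they ran from -0.29 to 0.20 and from -0.33 to 0.21. The relation belongs to the brightest Thrsp probe set. With 1387852_at and 1370150_a_at, the probe set that rose, r was 0.21 and 0.01 and rho 0.26 and 0.16 (permutation p = 0.42 and 0.96 for r, 0.345 and 0.593 for rho; adjusted over 9 pairs 0.506 and 0.96 for r, 0.388 and 0.593 for rho), and without lean rats 1 and 4 r was 0.34 and 0.03. Within groups these r were 0.64 and 0.38 in the 6 obese rats and 0.01 and -0.18 in the 7 lean rats. Those probe sets of Thrsp followed each other at r of 0.89 (permutation p = 0.00039, adjusted p = 0.00351) and rho of 0.85 (permutation p = 0.00268, adjusted p = 0.0241), with r of 0.85 without obese rats 6 and 2. For Srebf1, the 2 probe sets had r of 0.32 and rho of 0.38 (permutation p = 0.45 and 0.246, adjusted p = 0.506 and 0.323), and r was 0.18 without obese rats 5 and 7.

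**Figure D4:**
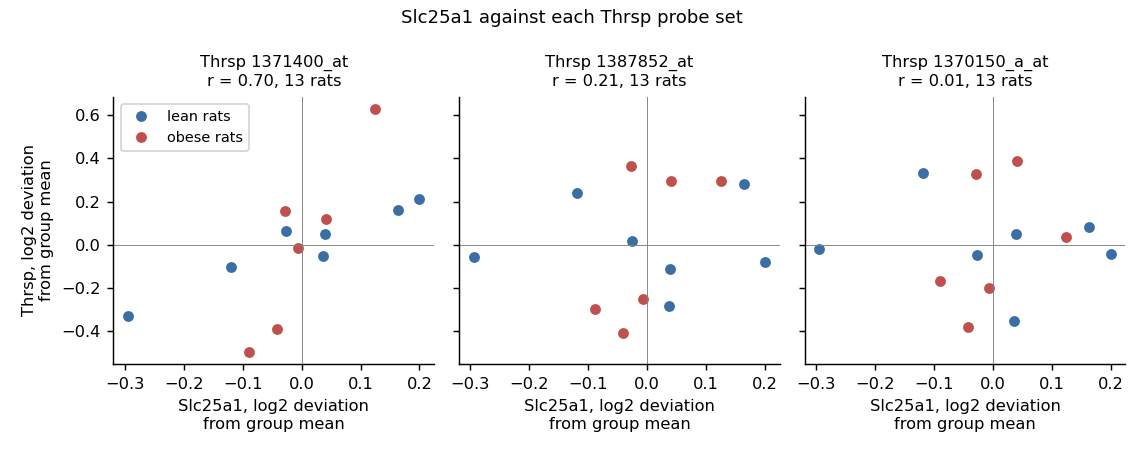
Log2 deviation of each rat from its group mean for Slc25a1 (horizontal) against each of the 3 Thrsp probe sets (vertical), 6 obese rats in red and 7 lean rats in blue. In the left panel, where r is 0.70, points rise in both groups, along a steeper line in the obese rats. In the other panels r is 0.21 and 0.01.

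The genes whose deviations over these 13 rats were most like the mean of the 9 members, among 10514 genes compared, were Ddx1 (r = 0.91), Crip2 (0.90), Rbms2 (0.87), Ndufs8 (0.87) and Nrdc (0.86), given as a description with no test. The mean of the members was taken after scaling each to the same spread. The members themselves followed it less closely than these 5 genes, at r from 0.08 (Acly) to 0.71 (Slc25a1). The log2 fold changes of the 5 ran from 0.0048 for Ndufs8 to 0.42 for Nrdc, and none passed (limma adjusted p from 0.110 to 0.987).

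Neighbouring genes of the pathway were compared from 5 lists. Of 12 other NADPH genes above the filter, 0 rose and 0 fell with 13 rats, with a median log2 fold change of 0.07, and 2, Taldo1 and Pgls, were higher at an unadjusted limma p under 0.05, where 7.59% of all probe sets were. Transaldolase (Taldo1), which works beside Tkt, averaged 9639 ± 1776 (SD, n = 6) in the obese group and 6516.0 ± 729.6 (SD, n = 7) in the lean group. Its log2 fold change was 0.55 ± 0.13 (SE; limma adjusted p = 0.0546), short of the threshold. Pgls, the lactonase ahead of Pgd, had 0.36 ± 0.11 (SE; limma adjusted p = 0.114), while H6pd, the dehydrogenase of the endoplasmic reticulum, had -0.33 ± 0.19 (SE; limma adjusted p = 0.366). The pentose isomerase and epimerase, Rpia and Rpe, had -0.18 and 0.06, and the NADP-dependent isocitrate dehydrogenases Idh1 and Idh2 had 0.11 and -0.16.

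Of 14 genes of elongation, desaturation and further synthesis, only Scd passed with 13 rats, and the list median was 0.04. At an unadjusted limma p under 0.05, 4 of 14 were higher and 0 lower, against 7.59% and 10.2% of all probe sets. Scd, the delta-9 desaturase that acts on the products of Fasn, stood at 3.06 ± 0.34 on the log2 scale (SE; limma adjusted p = 0.00257), and at 2.60 with 15 rats, where it did not pass (0.0948). The elongases Elovl6 and Elovl1 and the desaturase Scd2 had 0.45, 0.29 and 0.45 (limma adjusted p = 0.203, 0.173 and 0.208). Among 15 genes of acetyl-CoA and citrate supply 0 passed and the median was 0.02. Got1, the cytosolic aspartate aminotransferase, had 0.42, the malate dehydrogenase Mdh2 0.25 and the pyruvate carrier subunit Mpc2 -0.22 (limma adjusted p = 0.133, 0.352 and 0.387).

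A list of 19 genes around SREBP, LXR and ChREBP, the transcription factors of this pathway, included some of these factors themselves. Of the 19, 0 passed with 13 rats and the median was 0.03. Insig1, which holds SREBP back in the endoplasmic reticulum, had 0.39, the E-box factor Usf1 0.34 and the NF-Y subunit Nfya 0.31 (limma adjusted p = 0.325, 0.273 and 0.329). ChREBP itself (Mlxipl) had -0.12 and LXR alpha (Nr1h3) -0.07, and Mid1ip1, the relative of Thrsp that activates acetyl-CoA carboxylase, had 0.19. Of 18 genes of AMPK and insulin control 0 passed, the median was -0.01, and 4 had an unadjusted limma p under 0.05, all lower in obese rats, where 10.2% of all probe sets were lower at that threshold. The AMPK catalytic subunit Prkaa1, whose kinase inactivates Acaca, had 4283.1 to 5029.9 in the 6 obese and 4934.7 to 6804.7 in the 7 lean rats. Its log2 fold change was -0.36 ± 0.09 (SE; limma adjusted p = 0.0766). The insulin receptor Insr had -0.60 and Trib3 -0.41 (limma adjusted p = 0.139 and 0.149). With 15 rats 0 genes of the 5 lists passed, and the list medians ran from 0.0056 to 0.05.

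**Figure D5:**
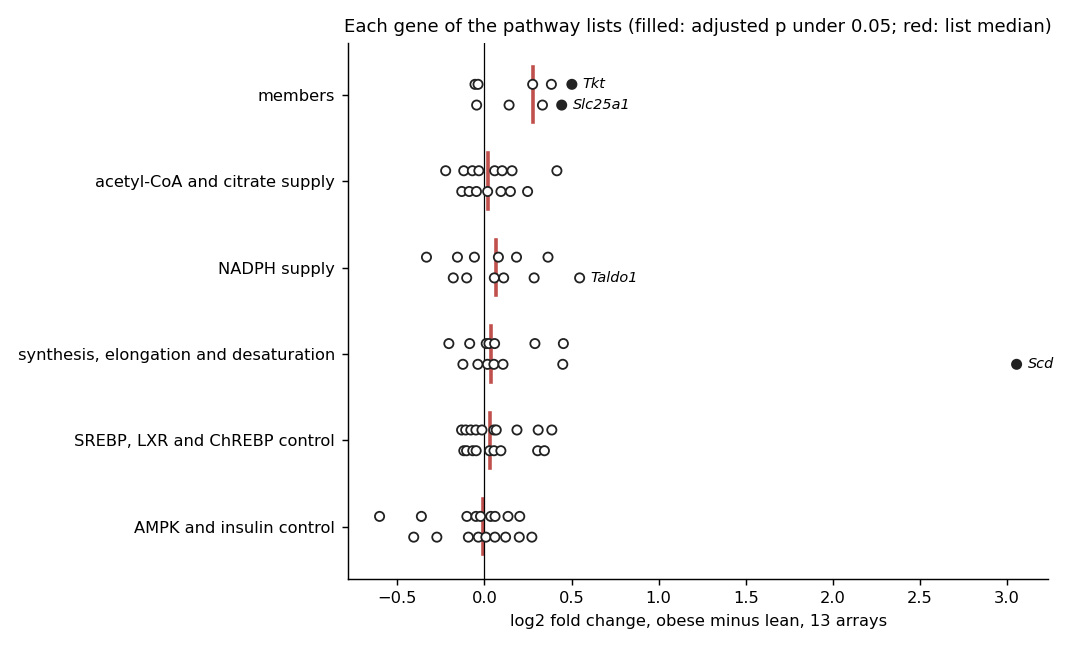
Log2 fold change, obese minus lean with 13 rats, of each gene (circle, filled where the adjusted p is under 0.05) in the 9 members and the 5 pathway lists, with list medians in red. The members' median is 0.28, those of the other lists lie between -0.01 and 0.07, and filled circles are Tkt, Slc25a1 and Scd.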

How the data were processed

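Whole epididymal fat RNA of 7 obese and 8 lean rats was read on 15 arrays. Per the submitters' processing notes the deposited intensity values come from MAS5, whose version is not given in the sources used here, and the authors' values had a 2% trimmed mean between 1500.34 and 1500.42 on every array. MAS5 subtracts mismatch signal, so dim values are noisy. The labels and the design text differ on RNA input (6 and 5 micrograms) and on the extraction reagent.

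Signals were analysed as log2(signal + 79.9), the 10th percentile of all signals, which understates changes at low signal. Probe sets whose mean exceeded the 40th percentile were tested (18625, among them all 15 of the members) with limma 3.58.1 in R 4.3.3 (lmFit, eBayes, Benjamini-Hochberg, threshold 0.05). This step was tested on simulated data, where recovery of calls was required only for shifts far larger than those of the members. Each gene is represented by the brightest of its probe sets. The ranking by likeness to the members, tested on simulated data, was complete only for a strong shared signal. Names came from the platform annotation, updated by Entrez ID for 20764 of 20826 probe sets. Promoters are RefSeq's (GRCr8). Array measures had exact permutation tests and correlations 100000 permutations within groups. Figures used matplotlib 3.10.9. Rat numbers name different animals, and same-numbered rats did not deviate together in every pair (r from -0.11 to 0.24), so no block was used. Both comparisons were refitted under each alternative setting and without each rat in turn. Members, lists, tests and the exclusion of the near-identical pair were chosen with earlier results of these data known, and probe set correlations were added after seeing the data. Named list genes are those past the threshold and the 3 with the next smallest p in each list, the 5 genes most like the members' mean, and a few more from the lists, chosen after their values were seen, to place the members' steps. Lists of mesothelial, endothelial and epididymal epithelium markers had 0 of 7, 5 and 1 tested genes called with 13 rats. Depth is not defined for arrays, and the number of rats limits the precision.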

Additional observations from a re-analysis of the deposited data

Results flagged for a closer look

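Of 36 groups of values examined, 2 held a rat far from the rest of its group, and chance flags about 1 in 20 groups. In lean rat 8 the bright Acaca probe set (1370893_at) had a log2 signal of 12.65, a signal of 6335.1, and its gap to the next lean rat was 0.59 of the range of the 8 lean rats. In lean rat 7 the dim Srebf1 probe set (1371104_at) had a log2 signal of 12.38, a signal of 5238.1, with a gap of 0.58 of that range. Lean rat 7 is one of the near-identical arrays and is left out with 13 rats.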

How the results depend on the processing

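The count of member genes that rose, 2 of 9 with 13 rats, was 1 with a pseudocount of 1 and 0 with no filter, with quantile normalization and with a Gapdh covariate. The fit with the rat number as a replicate block gave 0 as well, with log2 fold changes of 0.52 for Tkt and 0.43 for Slc25a1 (limma adjusted p = 0.198 and 0.205), and the Thrsp probe set that rose had 0.63 (0.208). The rats share only a number, and that fit called 3 probe sets in all against 189. Leaving out 1 more rat gave 0 to 1 genes, and with 15 rats 0 to 2, the 2 being Tkt and Slc25a1 without obese rat 1 (limma adjusted p = 0.0233 and 0.0434). The members' median log2 fold change stayed positive in all of these, from 0.21 to 0.39 with 13 rats and 0.18 to 0.35 with 15, the upper values (0.39 and 0.35) coming from median centring, which moved the median of all probe sets from -0.04 to 0.07 with 13 rats and to 0.06 with 15. It also gave 357 higher and 32 lower of 389 calls, against 135 and 54 of 189. Signs near 0 turned. Median centring gave Acly 0.062 and 0.057, Acaca 0.079 and 0.061 and Srebf1 0.071 and 0.069 with 13 and 15 rats, and array weights gave Acaca 0.012 with 13. For Srebf1 the Gapdh covariate gave 0.041 and 0.065 and the mean over probe sets 0.17 and 0.15. Leaving out 1 rat moved Acaca between -0.089 and 0.022 and Srebf1 between -0.13 and 0.019 with 13 rats, and between -0.084 and 0.0083 and -0.097 and 0.032 with 15. No sign of Slc25a1, Tkt, Pgd, Me1, Fasn or Thrsp turned. The cause of these changes was not tested. Of all probe sets, 46 passed with no filter, 14 with the Gapdh ratio, 123 with a pseudocount of 1, 309 with trend and robust, 334 with the filter at the 60th percentile and 124 with quantile normalization. With 15 rats, where 0 passed, 49 did with the filter at the 60th percentile, 8 with trend and robust and 3 with no filter.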

Other observations

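Obese rat 3 held the highest value of some members and the lowest obese value of others. It had the highest signals of Slc25a1 (9501.5), Pgd (9277.5), the brightest Thrsp probe set (107304.1) and the dim Srebf1 probe set (6292.5) of all 15 rats. It also had the lowest obese values of Acly (9128.3), the dim Acaca probe set (662.0) and the bright Srebf1 probe set (8730.4). The SD of the log2 difference between its array and each other array was at least 0.51. No other array stood that far from all the rest. Obese rat 6 had the highest Tkt (17112.7) and the lowest Fasn (11836.7, bright probe set) and Acaca (4454.7, bright probe set) of all 15 rats. These rats were singled out after their values were seen.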
